A study of Mus musculus with 20 samples.

Results

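Dorsal epidermis recovering from imiquimod was compared between Grhl3 cKO and Grhl3 WT mice in the injured area. The comparison takes the 2 cKO and the 2 WT arrays labelled as the injured area of recovery skin, 4 of the 20 arrays of the series. The series covers 5 skin conditions, each with 2 arrays per genotype. They are skin stripped with wax tape (day 4), the injured and the unaffected area of imiquimod-treated animals (day 4), and both areas of skin in recovery (day 8). All animals are labelled C57B6, and the titles of both genotypes carry Krt14cre, so the control animals are given with the same Cre as the knockouts. Wax and recovery animals are labelled male, and the day 4 imiquimod animals female. Ages, the Grhl3 allele and the number of animals per array are not stated in the labels, which call the arrays of a group biological replicates. P-values measure the spread between these arrays.

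Grhl3 is a grainyhead-like transcription factor that acts in the terminal differentiation of keratinocytes, in formation of the skin barrier and in closure of epithelial wounds. The keratin 14 promoter drives Cre in basal keratinocytes, so that immune cells, melanocytes and other cells of the epidermis keep the gene. Imiquimod is a Toll-like receptor agonist whose repeated application to mouse skin produces a psoriasis-like reaction with thickened, scaling epidermis and infiltrating leukocytes. Recovery skin shows how far the epidermis has returned from that reaction. In bulk epidermis, fewer cells of a type and less RNA per cell cannot be told apart.

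The values are intensity units of probe sets, the groups of probes that an array summarises to 1 value. The probe-set IDs could not be used to name genes. The 205 probe sets that carry a ribosomal protein label, a class abundant in every tissue, centred on percentile 54.6 of mean intensity. The 1023 with an olfactory receptor label, a class silent in skin, centred on percentile 52.1. The level of Grhl3, keratinocyte and immune cell markers and gene lists are therefore not given, and the labelled tissue and knockout could not be checked. Probe sets are called H1 to H10 (the largest differences with the higher level in cKO) and L1 to L10 (the largest with the lower level). Of these H1 is 10448694, H2 is 10343815, L1 is 10486562 and L2 is 10503374, which identify positions in the deposited table and not genes.

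The 4 arrays had median intensities of 183 to 189 units, within the range of 169 to 200 over all 20. Replicates correlated at r = 0.988 in WT and 0.991 in cKO, across probe sets of injured recovery skin. These 4 arrays also lay apart from the other arrays with their labelled sex. Gaps of 3.67 to 6.74 (log2) in 5 probe sets divided the 8 arrays labelled female from 8 labelled male (wax-stripped skin and unaffected recovery skin). The 4 injured recovery arrays are also labelled male but fell on the side of the arrays labelled female in each. The genotypes were on the same side in all 5, with differences of 0.04 to 0.30 in size (log2; limma adjusted p 0.36 to 0.92). The arrays labelled female are all those of day 4 imiquimod skin, so labelled sex and experiment cannot be told apart in these 5. Without gene names, none of the 5 is shown to be sex-linked. Whether the sex or the sample labels of the injured recovery arrays are wrong cannot be told from the files. Injured recovery skin therefore means here the arrays that carry this label. No injured recovery array stands on the other side, so a comparison without this feature cannot be made. It lies between these arrays and the wax-stripped and unaffected recovery arrays, and its part in the results that set them against each other was not tested.

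In injured recovery skin, 190 of the 26310 tested probe sets had a higher and 73 a lower level in cKO than in WT (limma, Benjamini-Hochberg adjusted p under 0.05 over all probe sets), which is 1% of those tested, 0.722% higher and 0.277% lower. Differences of at least 2-fold made up 62 of the higher and 23 of the lower calls, and differences of at least 4-fold 7 and 1. The median size was 0.80 (log2) for the higher and 0.72 for the lower set, while the median difference over all probe sets was 0.01. In all 263 the cKO arrays did not overlap the WT arrays, which was also so in 52.5% of all probe sets tested. After quantile normalization 145 were higher and 95 lower, so that the higher calls were 60.4% of the total in place of 72.2%. The total of 263 became 143 and 79 when WT replicates 1 and 2 were left out in turn, 62 and 113 when cKO replicates 1 and 2 were, and 43 with the spread taken from these 4 arrays alone, where 13 of the 20 probe sets H1 to H10 and L1 to L10 lost their call.

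The largest difference was in H1. Its intensity was 33.9 and 91.2 in the WT arrays and 920 and 544 in the cKO arrays. Both cKO arrays were several-fold above both WT arrays, with a log2 difference of 3.31 ± 0.55 (SE; limma adjusted p = 0.0104). Outside injured recovery skin H1 reached 535 ± 49.4 (SD, n = 2) in injured imiquimod cKO skin against 108 ± 64.6 in WT. In wax-stripped skin it read 272 ± 158 in cKO and 84.0 ± 29.6 in WT (SD, n = 2 each). Neither of these differences passed the test (limma adjusted p = 0.20 and 0.57), and in the unaffected areas all means lay between 59.5 and 135. The H1 call was lost without WT replicate 1 (limma adjusted p = 0.0927) or cKO replicate 1 (0.164). H1 was thus brightest in the injured imiquimod and recovery groups of cKO mice, intermediate in wax-stripped cKO skin and dim in all WT groups.

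H4 and H5 had the same bias toward cKO in several injured skins. H4 read 1019 and 362 in the WT and 3331 and 2994 in the cKO arrays of injured recovery skin, a log2 difference of 2.34 ± 0.34 (SE; limma adjusted p = 0.00469). Its call was lost without cKO replicate 1 (limma adjusted p = 0.0688). On separate arrays it passed the test with the same direction in injured imiquimod skin (log2 difference 2.31, limma adjusted p = 0.0227) and in wax-stripped skin (3.24, limma adjusted p = 0.000412). In the unaffected areas its means were 88.9 to 149, with no call between genotypes. H4 was therefore bright in injured imiquimod and recovery skin of both genotypes and, after wax, in cKO only, and it was higher in cKO in each of the 3 injured skins.

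H5 read 306 and 148 in the WT and 1327 and 981 in the cKO arrays, a log2 difference of 2.33 ± 0.27 (SE; limma adjusted p = 0.00117). In the unaffected groups its means were 4.38 to 19.3 units, close to the bottom of the scale. Its genotype difference was 3.42 in wax-stripped skin (limma adjusted p = 4.07e-05) and 1.51 in injured imiquimod skin (log2; limma adjusted p = 0.0566), the latter just outside the threshold. Like H4, it was dim wherever the skin had not been injured, and wax-stripped WT skin, at 21.6 ± 6.11 (SD, n = 2), was dim too.

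H3 had its highest level in injured recovery cKO skin. The WT arrays read 381 and 232 and the cKO arrays 2013 and 1473, a log2 difference of 2.47 ± 0.26 (SE; limma adjusted p = 0.000557). The next highest group was injured imiquimod cKO skin at 487 ± 24.9 (SD, n = 2). Wax-stripped cKO skin had 447 ± 60.7 against 150 ± 13.7 in WT (SD, n = 2 each), a log2 difference of 1.47 that passed the test (limma adjusted p = 0.0330). Both injured recovery cKO arrays lay above every other array of the series. The genotype difference of H3 there differed from that in unaffected day 4 skin (limma adjusted p = 0.0187). Against unaffected recovery, injured imiquimod and wax-stripped skin it did not pass (limma adjusted p = 0.119, 0.175 and 0.413).

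H2 and H7 were low in WT rather than high in cKO. H2 read 8.51 and 68.3 in the WT and 317 and 315 in the cKO arrays, a log2 difference of 2.87 ± 0.39 (SE; limma adjusted p = 0.00268). H7 read 84.2 and 71.2 in the WT and 417 and 350.0 in the cKO arrays, a log2 difference of 2.09 ± 0.17 (SE; limma adjusted p = 0.000102). The cKO level was that of wax-stripped and day 4 imiquimod skin, whose group means were 292 to 378 for H2 and 350.4 to 557 for H7. The WT level was near that of unaffected recovery skin, at 95.2 ± 21.1 in WT and 44.6 ± 4.92 in cKO for H2 (SD, n = 2 each). In both probe sets all WT injured and all unaffected recovery arrays therefore lay together, below every other array.

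The rest of the 10 largest higher differences lay between 1.89 and 2.31 (log2), in H6, H8, H9 and H10, with limma adjusted p of 0.00398 to 0.0163. With 1 array left out, the call of H6 was lost without WT replicate 2, that of H10 without WT replicate 2 or cKO replicate 1, and those of H8 and H9 without WT replicate 2 or either cKO replicate (limma adjusted p 0.058 to 0.25). H6 and H8 had their highest mean in injured recovery cKO skin, at 1405 ± 622 and 880 ± 157 units (SD, n = 2 each). H9 had means of 683 to 1552 in the 8 other groups, between 450 ± 242 in WT and 1626 ± 50.3 in cKO injured recovery skin (SD, n = 2 each). H10 was brightest in injured imiquimod cKO skin, at 4409 ± 190 (SD, n = 2).

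**Figure D1:**
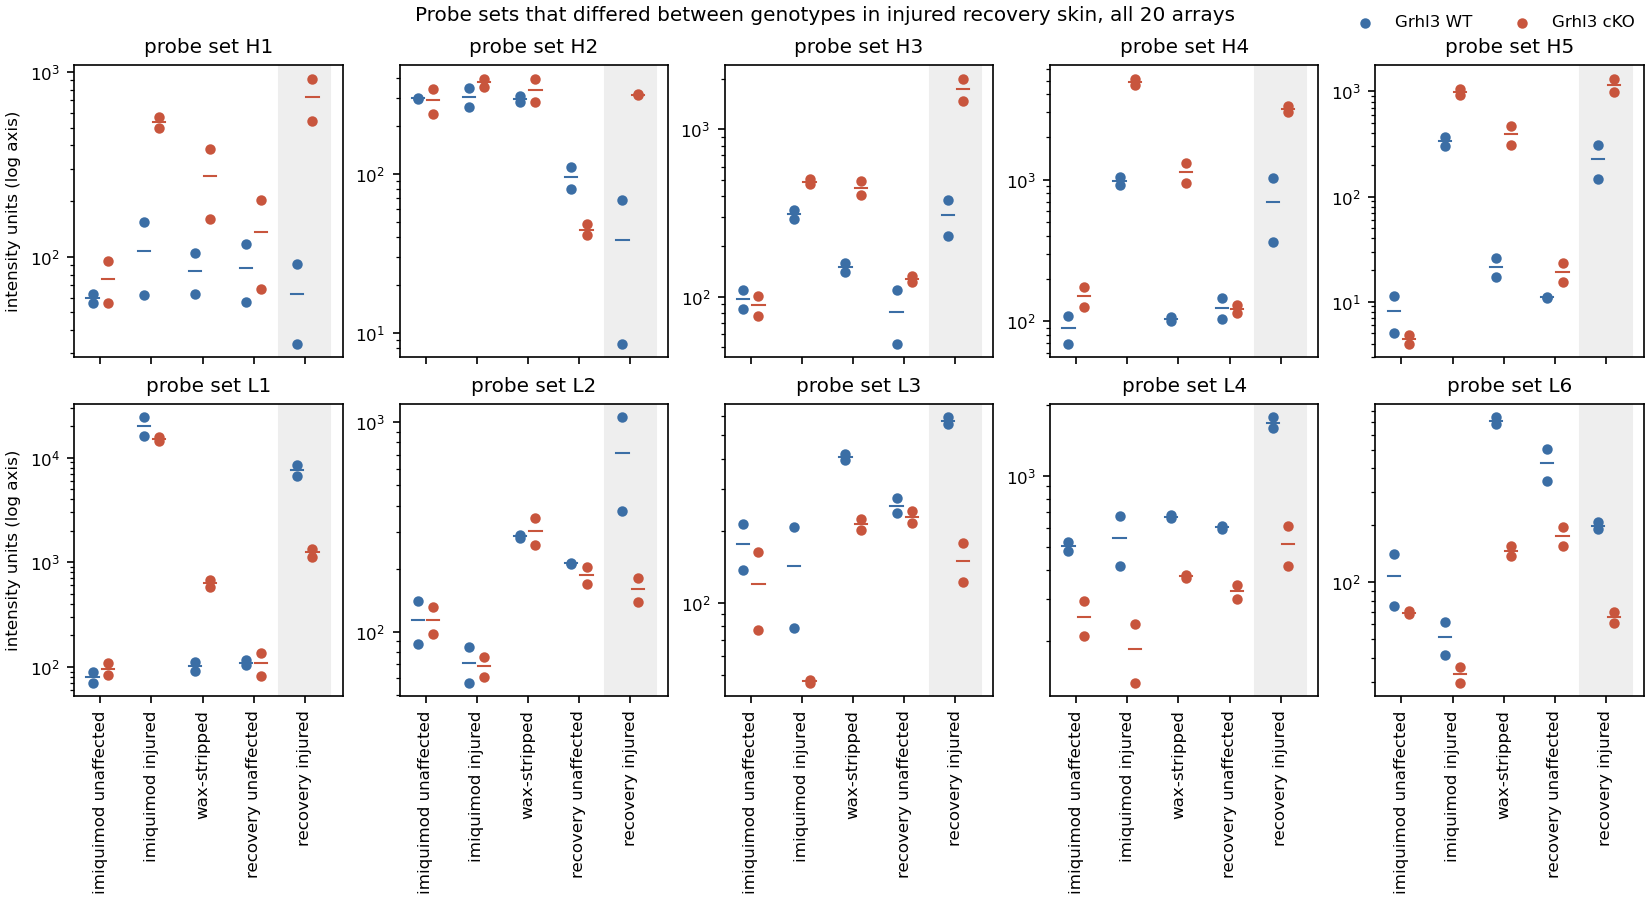
Intensity (log axis) of 10 probe sets in each of the 20 arrays, by condition and genotype; points are arrays, short lines are the mean of the 2 arrays of a group, and the grey band marks injured recovery skin. H1, H3, H4 and H5 were brighter in cKO than in WT there, H2 lay at the level of unaffected recovery skin in WT only, and L1 was near 7589 units in WT and 1240 in cKO.

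Among the lower probe sets the largest difference was in L1, which at day 4 was 7.39 (log2) higher in injured than in unaffected imiquimod skin. It read 8562 and 6616 in the WT and 1133 and 1347 in the cKO arrays, a log2 difference of -2.59 ± 0.22 (SE; limma adjusted p = 0.000103). Unaffected skin of both days had means of 79.9 to 110 units in either genotype. In injured imiquimod skin L1 reached 20194 ± 5660 in WT and 15049 ± 791 in cKO (SD, n = 2 each), with no call between them (log2 difference -0.40, limma adjusted p = 0.48). On day 8 the arrays of both genotypes lay below those of injured day 4 skin, the cKO arrays by more. After wax the order was the opposite, with 102 ± 14.0 in WT and 628 ± 63.9 in cKO (SD, n = 2 each), a log2 difference of 2.45 (limma adjusted p = 0.000113). The genotype difference of L1 in injured recovery skin differed from that in each of the 4 other conditions by interaction contrasts, by -2.54 against unaffected recovery, -2.20 against injured imiquimod, -5.04 against wax-stripped and -2.82 against unaffected imiquimod skin (log2; limma adjusted p between 1.04e-05 and 0.0269).

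A second called probe set, outside the 10 largest and picked out after its values were seen, had the same order as L1. It read 2183 ± 552 in WT and 1105 ± 12 in cKO injured recovery skin, and 20.7 ± 2.78 in WT and 129 ± 38.5 in cKO wax-stripped skin (SD, n = 2 each). Both differences passed the test, with log2 differences of -0.95 (limma adjusted p = 0.0489) and 1.96 (limma adjusted p = 0.000410). It and L1 were the only probe sets called in opposite directions in these 2 skins.

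L2 and L3 were brightest in WT injured recovery skin. L2 read 375 and 1052 in the WT and 180 and 139 in the cKO arrays, a log2 difference of -1.89 ± 0.35 (SE; limma adjusted p = 0.0212). The WT arrays differed from each other by more than the lower of them differed from the cKO arrays. L3 read 594 and 557 in the WT and 178 and 122 in the cKO arrays, a log2 difference of -1.85 ± 0.34 (SE; limma adjusted p = 0.0212). The L2 call was lost without WT replicate 2 or either cKO replicate, and the L3 call when any 1 of the 4 arrays was left out (limma adjusted p 0.083 to 0.15 for both). Neither had a genotype call in any other condition.

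L4 to L10 had a lower group mean in cKO than in WT in every condition of the series. L4 and L5 had nearly the same values on all arrays, as did L8, L9, L10 and 1 further called probe set, so these are not independent of each other. L4 read 1591 and 1765 in the WT and 615 and 417 in the cKO arrays, a log2 difference of -1.69 ± 0.25 (SE; limma adjusted p = 0.00529). The call was lost without WT replicate 2 (limma adjusted p = 0.0693) or cKO replicate 2 (0.0629). Elsewhere its WT means were 502 to 671 and its cKO means 185 to 375, so that the level of injured recovery WT skin was above all others while the direction between genotypes was the same throughout. Averaged over the 4 other conditions, the difference of L4 was -1.03 (log2; limma adjusted p = 0.00198).

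L6 read 208 and 190 in the WT and 61.4 and 69.9 in the cKO arrays, a log2 difference of -1.40 ± 0.23 (SE; limma adjusted p = 0.00956). The call was lost when any 1 of the 4 arrays was left out (limma adjusted p 0.050 to 0.13). Its difference in wax-stripped skin was -2.16 (limma adjusted p = 0.00041), and its mean difference over the 4 other conditions -1.07 (limma adjusted p = 0.000747). L7 read 4541 and 5177 in the WT and 1813 and 2039 in the cKO arrays, a log2 difference of -1.33 ± 0.17 (SE; limma adjusted p = 0.00206). L8 read 807 and 790 in the WT and 333 and 310 in the cKO arrays, a log2 difference of -1.27 ± 0.17 (SE; limma adjusted p = 0.00274). The differences of these 3 in injured recovery skin did not pass the interaction tests against the other conditions.

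The levels of the called probe sets were then set against the 8 other groups. These probe sets were selected by the difference between the cKO and WT means, which itself favours a mean outside the range of the others. Of the 190 higher probe sets, the cKO mean was above all 8 other groups in 84 (44.2%), a position that it had in 16.4% of all probe sets tested. The WT mean was below all 8 in 61 (32.1%, against 9.18% of all tested). Both held in 18, and in 63 (33.2%, against 61.0% of all tested) both means lay within the range of the other groups. The higher calls thus included many probe sets in which cKO stood out and many in which WT did.

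In the 73 lower probe sets, the WT mean was above all 8 other groups in 45 (61.6%, against 11.9% of all tested) and the cKO mean below all 8 in 15 (20.5%, against 15.2%). WT skin was therefore the outlying group in most of the lower set. In total, 1 or both injured recovery means lay outside the range of the other groups in 127 of the 190 higher (66.8%) and 57 of the 73 lower probe sets (78.1%), 184 in all, against 39.0% of all tested, a description for which no test was made. All tested probe sets were not selected by the genotype difference, so a higher share among the called ones follows in part from their selection. That number was 99 and 63 when WT replicates 1 and 2 were left out in turn and 49 and 86 when cKO replicates 1 and 2 were, with fewer probe sets called each time.

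**Figure D2:**
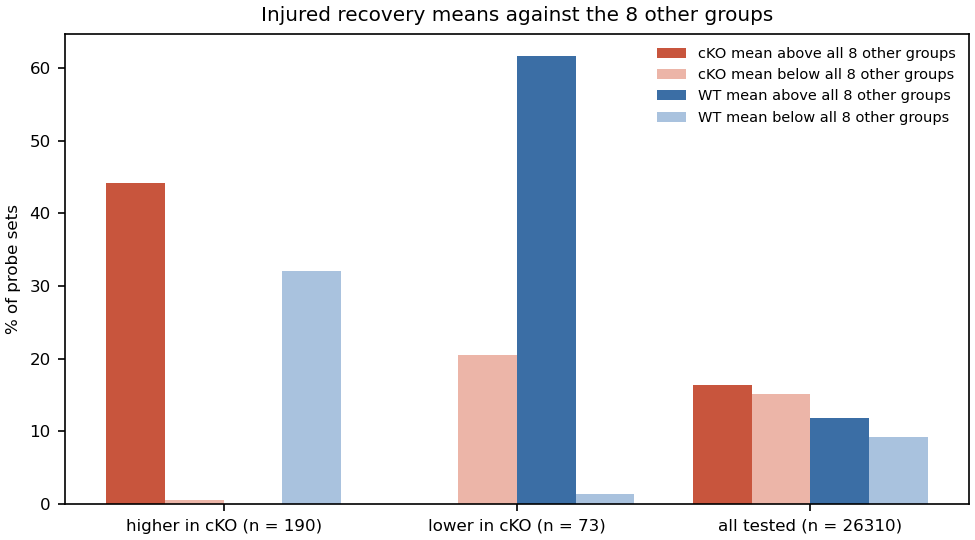
Share of probe sets (bars, %) in which the cKO or WT mean of injured recovery skin lay above or below the means of all 8 other groups, for the 190 higher, the 73 lower and all 26310 tested probe sets. The cKO mean was above in 44.2% of the higher set, and the WT mean was above in 61.6% of the lower set.

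**Figure D3:**
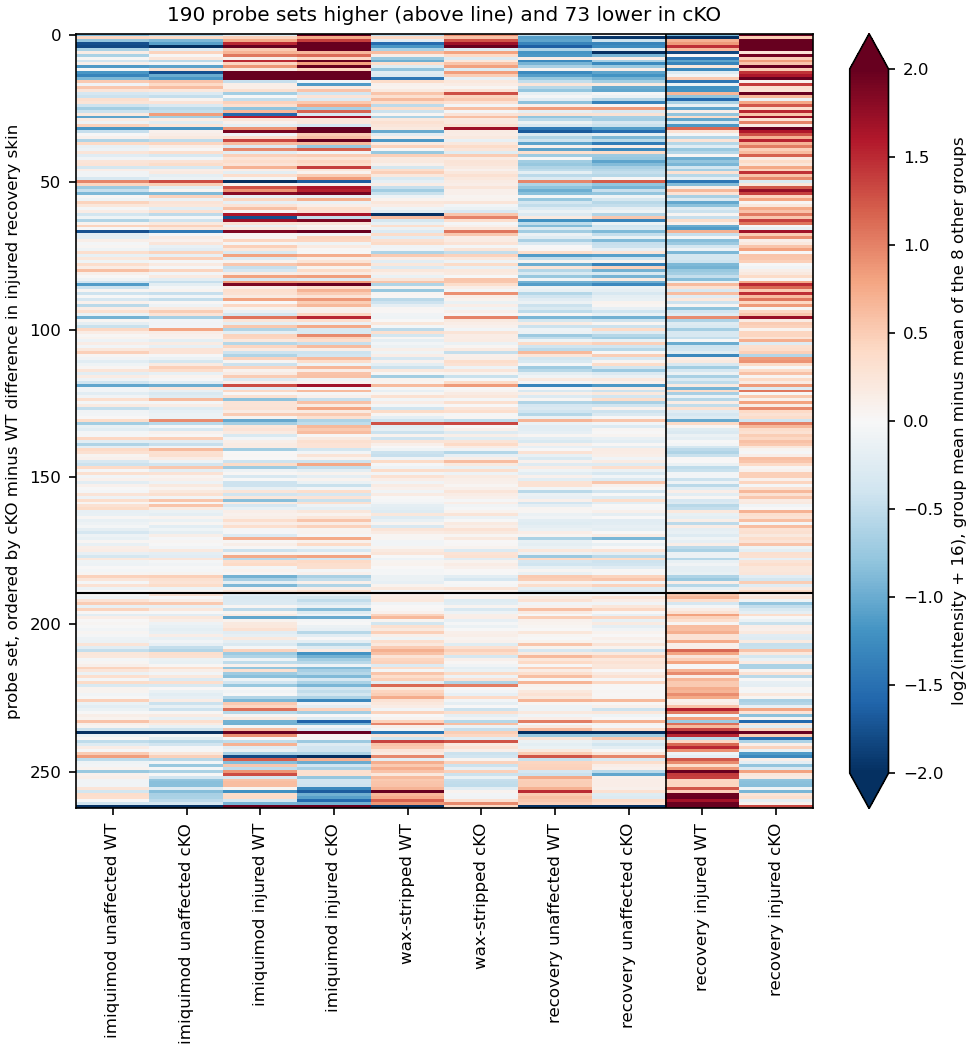
Group means of the 263 called probe sets (rows) in the 10 groups (columns), as log2(intensity + 16) minus the mean of the 8 other groups, with the colour scale stopping at 2 in either direction. The injured recovery groups are the 2 columns on the right; many higher probe sets are pale or blue in WT there, and the lower ones are mostly red in WT.

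Individual probe sets were sorted by which groups lay on each side of their widest gap between arrays. Kept were those whose widest gap was over 0.3 (log2) and put the injured recovery genotypes on different sides. Probe sets with such a gap beside a wider one are not counted, so the counts are lower bounds for each arrangement. This sorting was chosen after the data were seen and has no test. It uses the same genotype difference as the calls, so it favours called probe sets and fixes the direction of their call. The widest gap was of this kind in 190 of all 26310 probe sets (0.722%), of which 62 were called higher and 25 lower. By this rule both injured recovery cKO arrays lay above all 18 other arrays in 42 of all tested probe sets. Of these 42, 15 were called higher, H3 and H8 among them. The WT injured and all unaffected recovery arrays lay together below the widest gap in 17, of which 16 were called higher, H2 and H7 included. These were the 2 most common arrangements among the higher calls sorted this way.

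By widest gap, injured recovery cKO skin lay with injured imiquimod skin of both genotypes above all other groups in 22 of all tested. Of these 22, 9 were called higher. One of the 9, outside the 10 largest, read 409 and 286 in the WT and 874 and 859 in the cKO arrays of injured recovery skin, a log2 difference of 1.30 ± 0.20 (SE; limma adjusted p = 0.00664). Injured imiquimod skin reached 1083 ± 193 in WT and 1664 ± 48.0 in cKO, against 76.2 ± 18.7 and 84.9 ± 1.41 in unaffected recovery skin (SD, n = 2 each). In 7 of all tested, the widest gap put injured recovery and injured imiquimod cKO skin above all other groups. All 7 were called higher, H1, H4 and H6 among them. H5 had the same arrangement but a wider gap elsewhere, so it is not among the 7. The widest gap put WT injured recovery skin alone below all other arrays in 13 of all tested, 7 of them called higher. The leading one of these read 87.6 and 88.3 in WT and 212 and 165 in cKO, against means of 164 to 250 in the 8 other groups.

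By widest gap, both WT injured recovery arrays lay above all others in 35 of all tested probe sets. Of these 35, 14 were called lower, L4 and L5 among them. Both WT arrays of L3 and L7 also lay above all others, but these probe sets had a wider gap elsewhere and are not counted. The cKO arrays alone lay below the widest gap in 7 of all tested (3 called lower). They joined injured imiquimod skin below it in 11 (3 called lower). The leading probe set of the last kind read 145 and 235 in the WT and 86.3 and 68.6 in the cKO arrays. It had 51.7 ± 25.8 in WT and 29.3 ± 3.22 in cKO injured imiquimod skin, against 529 ± 43.5 and 433 ± 57.9 in unaffected recovery skin (SD, n = 2 each).

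The low position of unaffected recovery skin in H2 and H7 was looked at in the 8 other groups alone. In 33 probe sets all 4 unaffected recovery arrays lay more than 0.5 (log2) below every wax and imiquimod array. Of these 33, 11 were called higher in cKO injured recovery skin (33.3%, beside 0.722% of all tested) and 0 lower (beside 0.277%). H2 and H7, from which this arrangement was taken, are themselves among the 11. Their median level was 9.23 and 8.92 (log2) in the WT and 9.47 and 9.37 in the cKO injured recovery arrays, against 7.86 to 8.12 in unaffected recovery skin and 8.84 or more in the wax and imiquimod arrays. Over all 33, the WT mean lay nearer to unaffected recovery skin than to the wax and imiquimod groups in 11, and the cKO mean in 0. In the opposite arrangement, with unaffected recovery skin above all wax and imiquimod arrays (13 probe sets), 0 were called. With 1% of all tested called in either direction, 0 of 13 is near the background share. Without the probe sets of both arrangements 171 were higher and 68 lower.

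Whether the knockout made the same difference in other skin was examined on the 16 other arrays. Averaged over the 4 other conditions, 112 probe sets differed by genotype (0.426%), 61 of them higher (0.232%) and 51 lower (0.194%) in cKO. Of the 73 lower in injured recovery skin, 23 were called lower there (31.5% of the 73 and 45.1% of the 51), and 0 higher. The 23 include the near copies L4 and L5, and L8, L9, L10 and their further near copy, each counted separately. With near copies counted once, the 73 made 69 profiles and the 190 higher made 188. Of the 190 higher, 17 were called higher (8.95% of the 190 and 27.9% of the 61), and 0 lower. The lower list thus shared a larger part with the rest of the series than the higher list did; the difference between these shares was not tested.

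The same was seen by direction. In 44 of the 73 lower probe sets (60.3%) the difference had the same sign in all 4 other conditions, the same near copies among them. That compares with 50 of the 190 higher ones (26.3%) and 10.7% of all probe sets tested. The median difference of the lower set was -0.31 (log2) in injured imiquimod and -0.32 in wax-stripped skin, and -0.15 and -0.13 in the unaffected areas of recovery and day 4 skin. The higher set had medians of 0.17 in injured imiquimod and 0.12 in wax-stripped skin, and -0.01 and 0.05 in the unaffected areas of recovery and day 4 skin. The median over all probe sets tested was between -0.01 and 0.02 in these 4 conditions.

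In single conditions, 20 probe sets were higher (0.076%) and 16 lower (0.0608%) in injured imiquimod cKO skin. Of these, 5 were also among the 190 higher (25% of the 20 and 2.63% of the 190), and 12 among the 73 lower (75% of the 16 and 16.4% of the 73). In wax-stripped skin 51 were higher (0.194%) and 20 lower (0.076%), of which 14 were among the 190 (27.5% of the 51) and 10 among the 73 (50% of the 20). Unaffected recovery skin had no call between genotypes by limma (800 at an unadjusted p under 0.05), and unaffected day 4 skin had 2 (0.0076%), 1 in each direction (0.0038% each), neither of them called in injured recovery skin. H4 was the only probe set higher in all 3 injured skins. L8, L9, L10 and the further probe set of their profile were the only ones lower in all 3. These 4 near copies are counted separately in the 12 and the 10 shared lower probe sets above, which raises those shares.

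**Figure D4:**
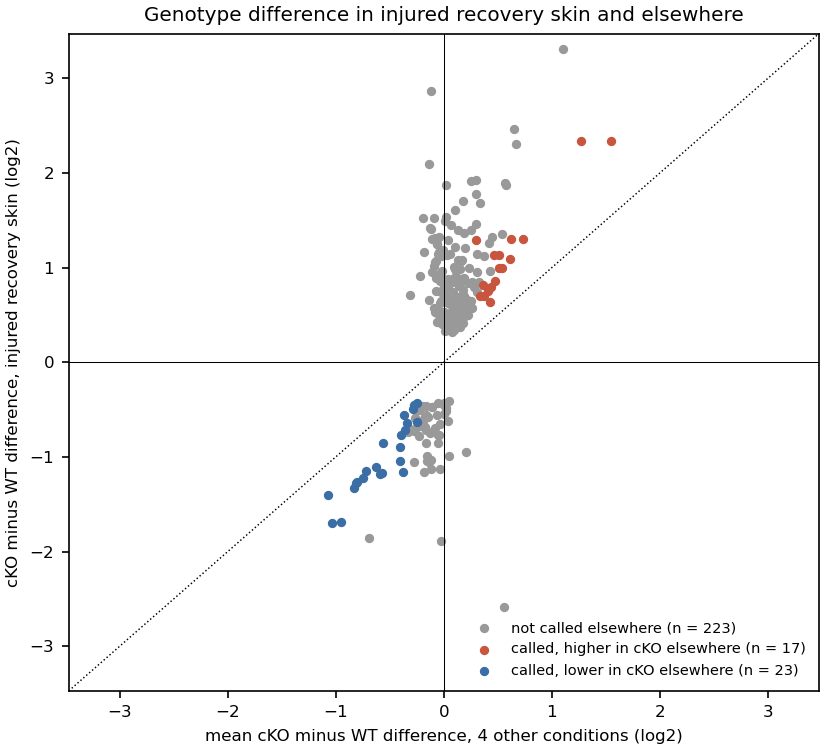
Difference between cKO and WT in injured recovery skin (vertical axis, log2) against the mean difference in the 4 other conditions (horizontal axis, log2) for the 263 called probe sets; the dotted line marks equal differences. Coloured points passed the test in the other conditions as well (17 higher and 23 lower), and most others lie near 0 on the horizontal axis.

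The test of the difference between genotype differences was made for each other condition. The interaction contrast called 36 probe sets against unaffected recovery skin (0.137%), 34 with the larger (0.129%) and 2 with the smaller value (0.0076%) in injured recovery skin. It called 16 against injured imiquimod skin (0.0608%), 13 larger (0.0494%) and 3 smaller (0.0114%). Against wax-stripped skin it called 39 (0.148%), 21 larger (0.0798%) and 18 smaller (0.0684%). Against unaffected day 4 skin it called 28 (0.106%), 24 larger (0.0912%) and 4 smaller (0.0152%). Each was tested by limma with Benjamini-Hochberg adjustment. H7 and L1 passed all 4. These 4 contrasts share the injured recovery arrays, so that their lists are not independent of each other. Against the mean of the 4 other conditions, a contrast added after the data were seen, 53 were called (0.201%), 47 larger (0.179%) and 6 smaller (0.0228%).

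With the spread taken only from the arrays compared, the counts were 2, 4, 44 and 6 in the order given, against 36, 16, 39 and 28. The counts also rested on single arrays. Without injured recovery cKO replicate 1 they were 17, 2, 10 and 8 in the order given. Against injured imiquimod skin, 76 were called without its WT replicate 1 (40 larger and 36 smaller), 4 without its cKO replicate 1 and 9 without injured recovery WT replicate 1. Against unaffected recovery skin, the split of 34 and 2 became 18 and 9 without its WT replicate 2. Against wax-stripped skin, 67 were called without its cKO replicate 2, 10 without its cKO replicate 1, and 16 and 15 without its WT replicates 1 and 2. The same contrast gave 21 without injured recovery WT replicate 1 and 11 without cKO replicate 2. Its smaller calls were the more numerous in the fit on the arrays compared (26 against 18) and without wax-stripped cKO replicate 1 (6 against 4), injured recovery WT replicate 2 (17 against 13), cKO replicate 1 (6 against 4) or cKO replicate 2 (7 against 4). Against unaffected day 4 skin, 73 were called without its cKO replicate 1, 16 without its cKO replicate 2 and 10 without its WT replicate 1. That contrast gave 17 without injured recovery WT replicate 2 and 16 without cKO replicate 2. The count against the mean of the others was 18 without injured recovery cKO replicate 1, 33 without cKO replicate 2, and 32 and 34 without WT replicates 1 and 2. It was 31 and 35 without wax-stripped WT replicates 1 and 2, and 30 without injured imiquimod cKO replicate 1. A probe set called in injured recovery skin and outside these lists is not shown to differ from the other conditions, nor to be the same.

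The genotype difference was also set against the course of the imiquimod reaction. On the 8 separate day 4 arrays, 23.6% of all probe sets were raised and 25.4% lowered in injured over unaffected skin. Of the 190 probe sets higher in cKO injured recovery skin, 95 were raised at day 4 (50%) and 47 lowered (24.7%). Of the 73 lower ones, 19 were raised (26.0%) and 35 lowered (47.9%). The higher calls therefore held more imiquimod-raised probe sets than the background share, and the lower calls more imiquimod-lowered ones.

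Wax-stripped skin (day 4) differed from unaffected recovery skin (day 8) in 43.5% of probe sets, with 18.4% higher and 25.1% lower. The series holds no unaffected skin of wax-stripped animals, so wax and day cannot be told apart here. Of the 190 higher in cKO injured recovery skin, 106 were higher in wax-stripped skin (55.8%) and 24 lower (12.6%). In 65 (34.2%, against 12.8% of all tested) the level was higher in both this and the day 4 comparison. H2 and H7 are among the 106. They read 297 and 496 in wax-stripped and 300 and 350 in unaffected day 4 WT skin. Unaffected recovery WT skin had 95.2 and 131. Of the 73 lower ones, 17 were higher (23.3%) and 15 lower (20.5%) in wax-stripped skin.

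As a whole, the imiquimod-responsive probe sets were nearly level between genotypes on day 8. The 648 probe sets raised at least 2-fold at day 4 had array medians of 9.49 and 9.31 (log2) in the WT and 9.60 and 9.53 in the cKO injured recovery arrays. The cKO arrays were the higher ones by a small margin, and the median genotype difference over the 648 was 0.11, with 431 above 0. Levels were also put in units of the day 4 response, where 0% is unaffected and 100% injured day 4 skin of the same genotype. The median probe set stood at 71.6% in WT and 73.8% in cKO, each on the scale of its own genotype. The 1279 probe sets lowered at least 2-fold stood at 61.3% in WT and 63.5% in cKO. Their array medians were 8.53 and 8.45 in the WT and 8.48 and 8.61 in the cKO arrays, which overlap.

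Within the raised set, 30 probe sets were called higher in cKO injured recovery skin (4.63%, beside 0.722% of all tested) and 5 lower (0.772%, beside 0.277%). The 30 stood at a median of 43.9% in WT and 87.9% in cKO, each of the day 4 response of its own genotype. These values describe probe sets selected by this very difference. Of the 1279 lowered ones, 11 were called higher (0.860%) and 10 lower (0.782%, beside 0.277% of all tested). In those 10 the medians were 23.6% in WT and 53.7% in cKO, while in the 11 they were 76.1% and 54.6%, and in the 5 raised but lower in cKO 102% and 86.2%. H4 and H5, raised by 4.08 and 4.75 (log2) at day 4, were among the 30, while L1, raised by 7.39, was among the 5.

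**Figure D5:**
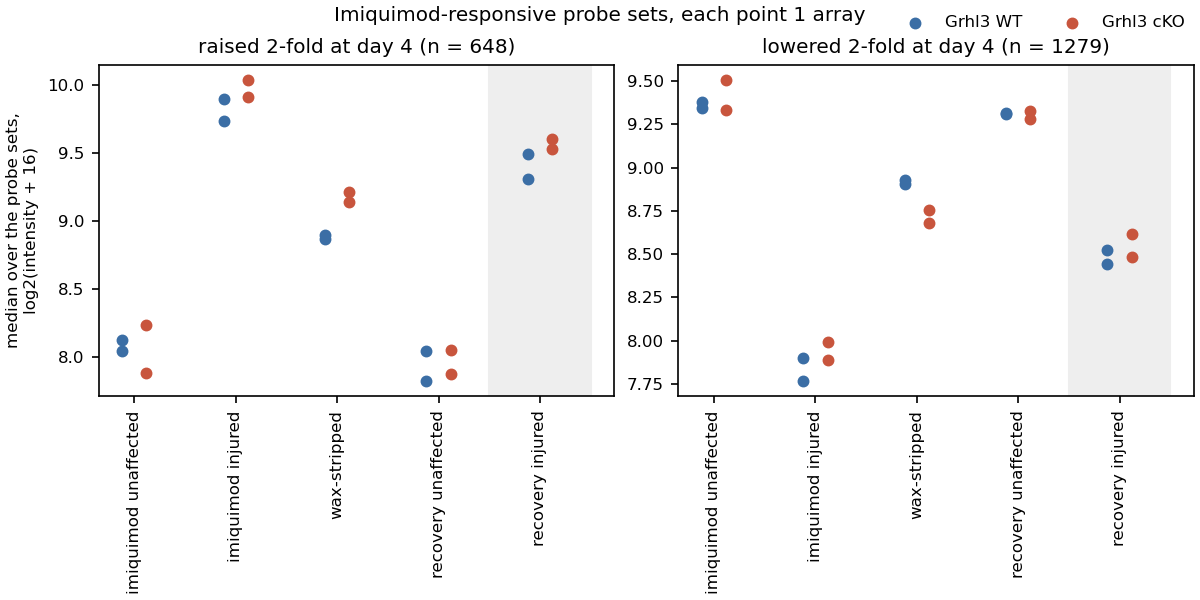
Median level, as log2(intensity + 16), of the 648 probe sets raised and the 1279 lowered at least 2-fold in injured over unaffected day 4 imiquimod skin; each point is 1 array and the grey band marks injured recovery skin. There, the raised set read 9.49 and 9.31 in WT and 9.60 and 9.53 in cKO, and the lowered set overlapped between genotypes.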

How the data were processed

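RNA of dorsal epidermis, freed with dispase, was hybridised, per the labels' protocols, to Affymetrix Gene ST arrays. The submitters' processing notes name Affymetrix Expression Console and PLIER as the authors' tools for these linear probe-set intensity values; the sources used here give no versions. Of 35556 probe sets, 476 with values identical to another were dropped, and those under the 25th percentile of mean level, which left 26310. Values were used as log2(intensity + 16), so folds of dim probe sets are understated. A group-means model over all 20 arrays in 10 groups (limma 3.58.1, R 4.3.3; 10 residual degrees of freedom) gave the genotype difference and interaction contrasts, with Benjamini-Hochberg adjustment and a threshold of 0.05; it was tested on simulated data. The number of arrays limits the precision.

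The table pairs 21789 IDs with 1 symbol, 1621 with several and 12146 with none. Since the pairing failed, the planned gene lists, cell type markers and Grhl3 check were not run, and the 10 largest called, non-overlapping differences in each direction were described by rank. The comparison and the lists were chosen with earlier results of these data known. Alternatives were quantile normalization, a pseudocount of 1 or 64, no filter or the 50th percentile, eBayes with trend or robust, a replicate block, fewer arrays, and each array left out.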

Additional observations from a re-analysis of the deposited data

Results flagged for a closer look

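The genotype difference in injured recovery skin differed from that in other conditions by interaction contrasts (limma, Benjamini-Hochberg adjusted p under 0.05). Called were 36 probe sets against unaffected recovery skin, 16 against injured imiquimod skin, 39 against wax-stripped skin, 28 against unaffected day 4 skin and 53 against the mean of these 4, the last a contrast added after the data were seen. In fits on only the arrays compared, the first 4 counts were 2, 4, 44 and 6. The contrasts share the 4 injured recovery arrays.

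H7, higher in cKO, differed in all of them, by 3.08 against unaffected recovery, 2.11 against injured imiquimod, 1.91 against wax-stripped, 1.80 against unaffected day 4 skin and 2.23 against their mean (log2). L1, lower in cKO, differed by -2.54, -2.20, -5.04 and -2.82 in the same order, and by -3.15 against the mean. H2 differed by 3.73 against unaffected recovery skin and 2.98 against the mean. H3 differed by 2.58 against unaffected day 4 skin and 1.82 against the mean, and H5 by 2.57 against unaffected day 4 skin.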

How the results depend on the processing

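The limits of these results are the 2 arrays per group, the shared spread over 20 arrays and dim probe sets, whose folds are understated. The total of 263 lay between 187 and 324 under the pseudocounts, quantile normalization, filters and eBayes settings. It was 239 without the probe sets in which unaffected recovery skin lay apart and 237 without its arrays, both chosen after seeing the data. With fewer arrays in the fit, which leaves fewer degrees of freedom, it was 130 (8 recovery arrays) and 43 (own arrays). Fits on the arrays compared called 2, 4, 44 and 6 probe sets against unaffected recovery, injured imiquimod, wax-stripped and unaffected day 4 skin. Leaving out 1 array gave 62 to 143 for the genotype difference, 17 to 41 against unaffected recovery, 2 to 76 against injured imiquimod, 10 to 67 against wax-stripped, 8 to 73 against unaffected day 4 skin and 18 to 65 against the mean. The number of called probe sets outside the other groups' range was 184, and 49 to 99 with 1 array left out. Of all tested, which were not selected by the genotype difference, 39.0% lie so.

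Whether replicate numbers pair the samples was not settled. Deviations of WT and cKO injured recovery arrays correlated at 0.166, in a range of -0.259 to 0.286 over 45 pairs of groups. Of these pairs 11 exceeded 0.1. With a replicate block 225 were called, and 10 in place of 16 against injured imiquimod skin; the cause was not tested. Of 313 alternative values of H1 to H10 and L1 to L10, 267 kept the call, 46 lost it (27 with an array left out, 13 with only the own arrays) and 0 reversed.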
